A study of Mus musculus with 16 samples.

Results

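Gpam, Lpin1 and Dgat2, 3 genes of hepatic triglyceride assembly, were followed through the listed RNAs that lie on them. The series lists long non-coding transcripts by interval, and 6 of its 51024 transcripts overlap the bodies of these genes in GENCODE M21 (GRCm38). Of these, 2 lie on Dgat2, 3 on Gpam and 1 on Lpin1, and each lies wholly within its gene. On each gene the transcripts were taken by position alone, but the choice was made with earlier results of these data known. The listed values do not include the protein-coding mRNAs themselves, and the sources used here do not give strand handling. Reads of a listed transcript and of the gene that overlaps it therefore cannot be told apart, and a gene symbol below names a position.

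RNA was sequenced from 16 liver libraries of C57BL/6J mice, an inbred wild-type strain, with 4 libraries in each of 4 groups. The control group received ordinary feed. The other groups all received high-fat feed, either alone, with the polyphenol resveratrol at 100 mg/kg per day, or with the biguanide metformin at 200 mg/kg per day. Both compounds were delivered by gavage, which is not mentioned for the undosed groups. Postnatal day 21 is the age on every label, without word on what happened then, and no label names a sex. All 4 high-fat titles carry the same prefix and the titles of every other group several, an unexplained mark. Should it stand for housing or parentage, that and the high-fat feed cannot be told apart.

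Triglyceride is built by adding fatty acyl chains to a glycerol backbone. Gpam encodes the mitochondrial acyltransferase that attaches the first chain to glycerol 3-phosphate, the step that commits fatty acids to glycerolipid synthesis, and is a known target of the lipogenic factor SREBP-1c in liver. Lpin1 encodes lipin 1, a phosphatase that turns phosphatidate into diacylglycerol and also acts in the nucleus as a coregulator of fatty acid oxidation genes. Dgat2 encodes the acyltransferase of the endoplasmic reticulum and lipid droplets that adds the last chain to diacylglycerol. Lipin's product is also the substrate of phosphatidylcholine and phosphatidylethanolamine synthesis, so the Dgat2 step is the one particular to triglyceride.

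The 6 transcripts sample different parts of their genes. On Dgat2 (ENSMUSG00000030747.5, chr7:99153658-99182719, minus strand), NONMMUT062889.2 is a single interval of 694 bases at chr7:99153658-99154351 that lies wholly in the 3′ UTR, covers 77.9% of it and ends on the same base as the gene. NONMMUT062890.2, a single interval of 2673 bases at chr7:99176456-99179128, lies in an intron of the same gene and holds no exon base. On Gpam (ENSMUSG00000024978.11, chr19:55067268-55127238, minus strand), NONMMUT035117.2 is a single interval of 2396 bases at chr19:55097348-55099743. It holds 254 exon bases, of which 102 are coding and 152 are 5′ UTR, the rest is intronic, and it spans the inner transcription start of the gene. The other Gpam transcripts, NONMMUT035118.2 and NONMMUT105664.1, have several parts and lie upstream of that start. All 3 also overlap AC110206.1 (ENSMUSG00000118099.1), an annotated antisense gene on the opposite strand. On Lpin1 (ENSMUSG00000020593.15, chr12:16535669-16610966, minus strand), NONMMUT013500.2 is a single interval of 795 bases at chr12:16536033-16536827 that lies wholly in the 3′ UTR.

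**Figure D1:**
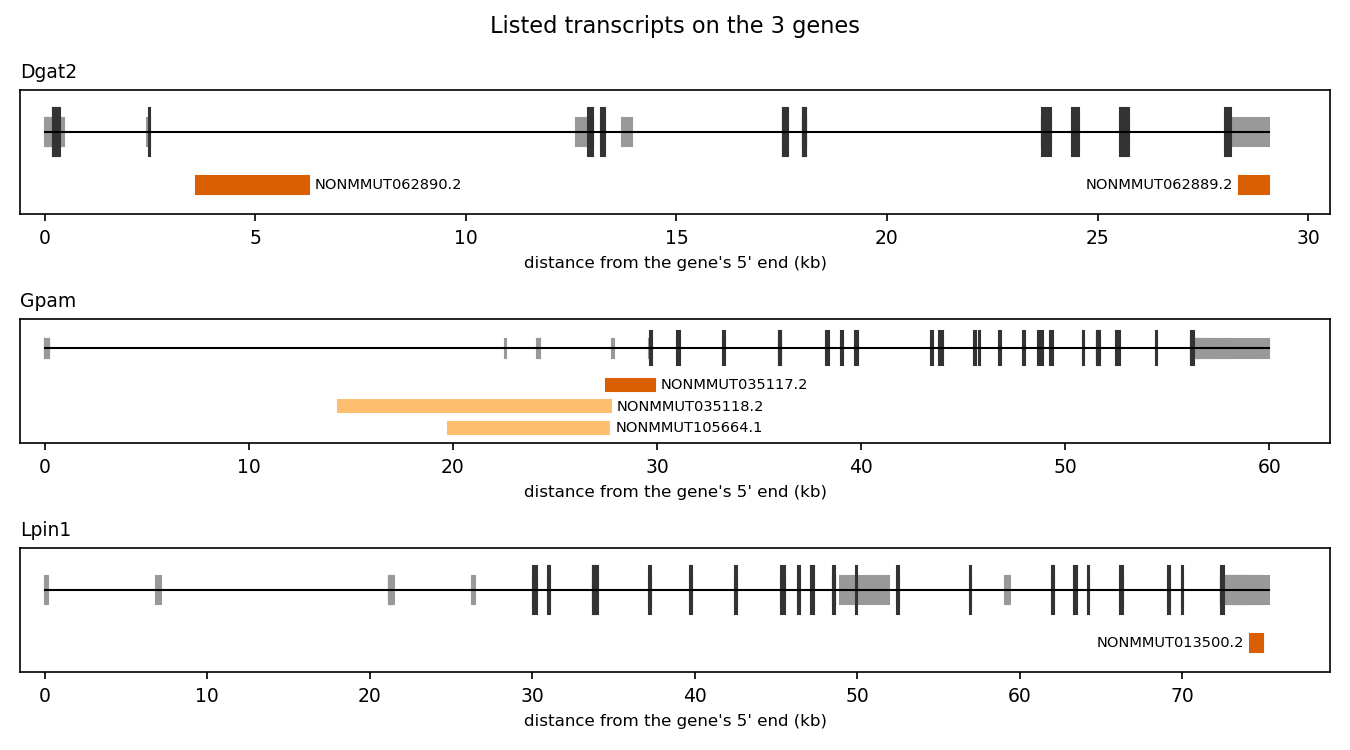
Position of the 6 listed transcripts (orange, dark for the 4 that were tested and pale for the 2 that were not) on Dgat2, Gpam and Lpin1. The horizontal axis is the distance from the gene's 5′ end in kb, tall dark boxes are coding exons and low grey boxes untranslated exons of all annotated forms. NONMMUT062889.2 ends at the 3′ end of Dgat2, while NONMMUT013500.2 stops 364 bases short of that of Lpin1.

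The 3′ UTR transcripts differ in how they lie against annotated mRNA ends, which was read from coordinates. The sequence at those ends was searched separately. The Dgat2 transcript and the Dgat2-201 mRNA end together, 17 bases after a polyadenylation hexamer. The Lpin1 transcript lies between alternative ends. Of the Lpin1 forms read, only the long forms Lpin1-201 and Lpin1-202 contain it, with 3′ UTRs of 2747 and 2462 bases. A pair of shorter forms, with 3′ UTRs of 1376 and 1228 bases, end before it begins. Any further annotated Lpin1 forms were not read. Both searched hexamers, AATAAA and ATTAAA, were sought in the last 40 bases of each form on the transcribed strand, and of these Lpin1 forms only Lpin1-202 holds one, 26 bases from its end. The stretches of the GENCODE M21 transcripts that hold the hexamers, at chr7:99153663-99153692 for Dgat2 and chr12:16535968-16535997 for Lpin1 (GRCm38, minus strand, 5′ to 3′, hexamer in capitals), were as follows.
Dgat2-201: tattcctagactAATAAAtggaaacaagaa
Lpin1-202: agaaatttctgtAATAAAcaagatggatga

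The Gpam transcript is shown by its promoter because it covers the start of the shorter Gpam form. RefSeq (GRCm38.p6) has promoter windows of 300 bases for 2 Gpam starts and 1 Lpin1 start. The inner Gpam window, chr19:55099428-55099727, lies within NONMMUT035117.2. It holds 2 copies of CGTCA, the half-site of the cAMP response element, counted on both strands, and 20.8% of all 32851 windows hold at least 1. The outer Gpam window has none but holds 1 CCAAT box (CCAAT, in 37.4% of windows), and no window of the 3 holds the E-box CACGTG, which 7.15% of windows do. The Lpin1 window holds none of these motifs. These are letter matches only. The stretch of the inner Gpam window with both half-sites, chr19:55099480-55099509 on the minus strand with the half-sites in capitals, reads as follows.
Gpam inner promoter: aCGTCActgccgcgcgccgcccgCGTCAtc

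Levels are FPKM, reads divided by the length of the transcript and by the total of the library. Library totals, recovered from the step between FPKM values, ranged from 17249300 to 31113700 reads. High-fat library 4 stood apart, with 23.6% of its reads on listed transcripts and a median ratio to the average library of 0.69, against 0.89 to 1.15 in the other 15 libraries. As a check on the tissue, 5 of 10 hepatocyte marker genes carried a listed transcript, with summed FPKM of 46.1 to 71.0 on ordinary feed, 47.2 to 68.6 on high fat, 64.7 to 102 with resveratrol and 56.9 to 71.5 with metformin. Nearly all of this came from 1 transcript on Serpina1a, and Alb, Apoa1, Fgb, Tf and Cyp2e1 carried none. Of 7 adipocyte markers 2 carried a listed transcript, with summed FPKM of at most 0.171 on ordinary feed, 0.826 on high fat, 0.0915 with resveratrol and 0.171 with metformin, and the defining markers Adipoq, Lep and Plin1 carried none. Of 6 markers of Kupffer cells and other macrophages 2 carried a listed transcript. Their summed FPKM was 0.160 to 0.506 on high fat. It was 0.208 to 3.39 on ordinary feed, 0.256 to 4.01 with resveratrol and 0.206 to 3.35 with metformin, so the ranges overlapped. The remaining cell types looked up are not given here. The part of these marker levels in the results was not tested. In bulk liver, fewer cells of a type and less RNA per cell cannot be told apart.

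Features were tested if their FPKM reached 1 in at least 4 libraries. Of the 6 transcripts 4 passed, the 2 on Dgat2, NONMMUT035117.2 on Gpam and NONMMUT013500.2 on Lpin1. Differences are log2 fold changes of FPKM + 1 from 1 limma fit of all 16 libraries, with the standard error (SE), a 95% confidence interval and a Benjamini-Hochberg adjusted p over all 7413 tested features. An adjusted p under 0.05 made a call. The labels list each library as a separate sample but name no animal, so p-values measure the spread between these samples.

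On high-fat feed 1 of the 4 tested transcripts was called higher than on ordinary feed, the Dgat2 3′ UTR transcript, and none was called lower. Over all tested features 14.6% were called in that comparison, 2.83% higher and 11.8% lower. The Gpam transcript had every high-fat value below every ordinary feed value without passing, the Dgat2 intronic transcript lay at overlapping levels, and the Lpin1 transcript varied widely within every group.

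**Figure D2:**
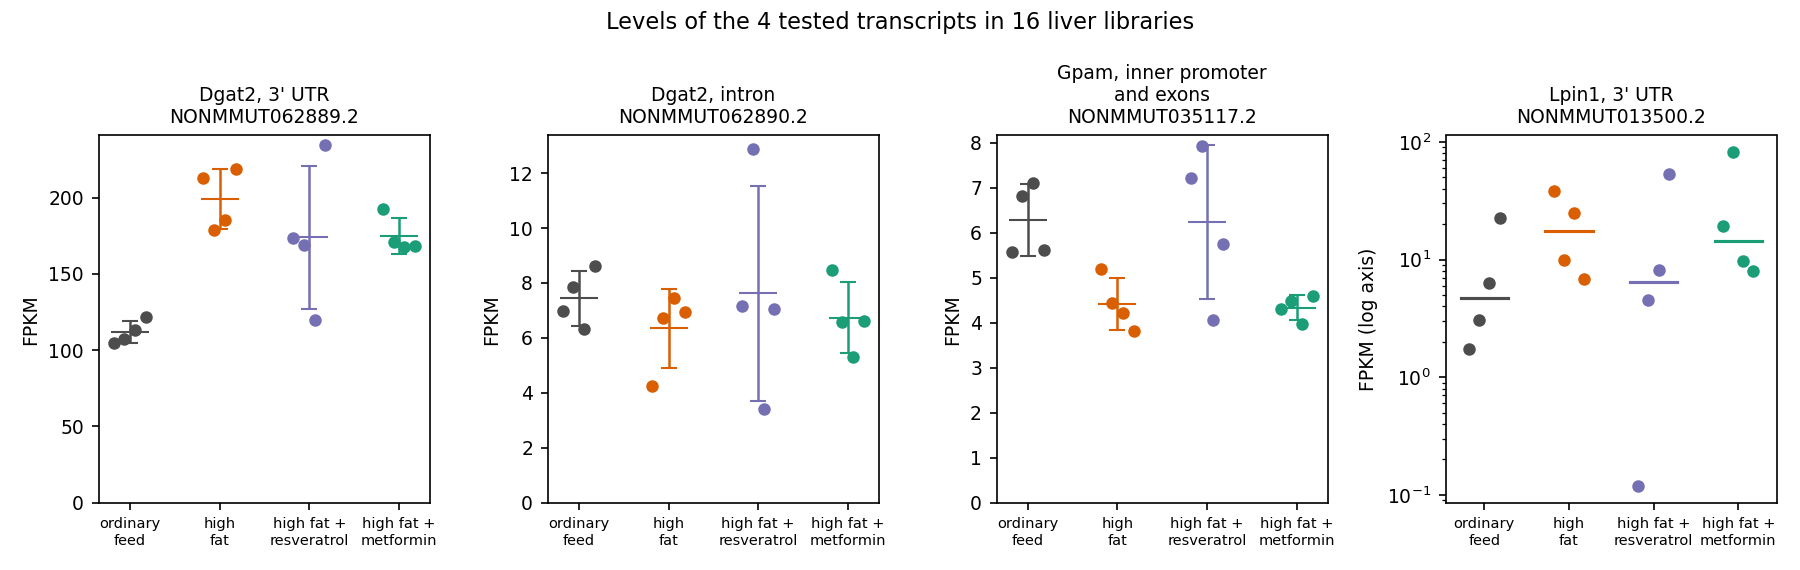
FPKM of the 4 tested transcripts in each library (points, ordered by library number) of the 4 groups. Horizontal lines with bars are means ± SD (n = 4), except for Lpin1, which is on a log axis with the group median as a line. The 4 ordinary feed values of the Dgat2 3′ UTR transcript, 105 to 122, sit below all 4 high-fat values, 179 to 219.

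At the first step of assembly, the Gpam transcript NONMMUT035117.2 gave 189 to 455 reads per library. On ordinary feed its FPKM in libraries 1 to 4 was 5.57, 6.82, 7.10 and 5.62. On high-fat feed it was 5.19, 4.44, 4.22 and 3.82. Every high-fat value was below every ordinary feed value, and the means were 4.42 ± 0.575 and 6.27 ± 0.796 (SD, n = 4). The log2 fold change was -0.42 (SE 0.16, 95% interval -0.77 to -0.08, limma adjusted p = 0.0880), which did not pass. Groups failed to overlap in 20.9% of all tested features, so the separation of Gpam and of the Dgat2 3′ UTR transcript, 2 of 4, is read against that share. The median log2 fold change over all tested features was -0.16, and when the libraries were scaled to bring that median to about 0 the Gpam difference was -0.19 (adjusted p = 0.494). Without high-fat library 4 it was -0.37 (adjusted p = 0.175).

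In the drug groups the Gpam transcript lay at different means without any difference passing. With resveratrol the FPKM values were 7.22, 7.92, 4.05 and 5.74, a mean of 6.23 ± 1.72, and with metformin they were 4.29, 4.48, 3.96 and 4.60, a mean of 4.33 ± 0.276. Resveratrol library 3 lay within the metformin range, while the other 3 resveratrol libraries lay above it and above every high-fat value. Against high fat alone, resveratrol differed by 0.39 (95% interval 0.04 to 0.74, limma adjusted p = 0.266) and metformin by -0.02 (95% interval -0.36 to 0.33, adjusted p = 0.983). Without high-fat library 4 these were 0.34 (adjusted p = 0.489) and -0.07 (adjusted p = 0.981), and with scaling to a common median 0.20 (adjusted p = 0.621) and -0.12 (adjusted p = 0.887). The drugs differed from each other by 0.41 (95% interval 0.06 to 0.75, adjusted p = 0.765). From ordinary feed, resveratrol differed by -0.03 (adjusted p = 0.959) and metformin by -0.44 (adjusted p = 0.155). Every metformin value lay below every ordinary feed value. None of these differences passed. The order of the means was metformin, high fat, resveratrol and ordinary feed, with no neighbours in that order separated by the test.

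The remaining Gpam transcripts were near the limit of detection. NONMMUT035118.2, the higher of them, had a mean FPKM of 0.0967, at most 0.315, with 339 reads in all libraries together and none in 3 of them. NONMMUT105664.1 was at 0 in 9 libraries and gave 69 reads in all. Neither was tested, and no fold is given for them.

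At the phosphatase step, the Lpin1 3′ UTR transcript NONMMUT013500.2 differed between libraries of the same group more than almost any other feature. On ordinary feed its FPKM was 1.75, 3.09, 6.29 and 22.6, and on high-fat feed it was 38.0, 9.99, 24.8 and 6.88. With resveratrol it was 0.119, 4.57, 8.22 and 52.9, and with metformin 19.1, 81.7, 9.65 and 8.03. The lowest value rested on 2 reads and the highest on 1145, a 687-fold span, and all groups overlapped. The SD of its log2 values within groups was 1.61, rank 47 from the highest of 7413 features, against a median of 0.24 over all features, 0.22 for the Dgat2 3′ UTR transcript and 0.22 for Gpam.

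The group medians of the Lpin1 transcript were 4.69 on ordinary feed, 17.4 on high fat, 6.39 with resveratrol and 14.4 with metformin. With this spread the design could not place its differences closely. High fat differed from ordinary feed by 1.37 (SE 1.03, 95% interval -0.83 to 3.57, limma adjusted p = 0.370), resveratrol from high fat by -1.20 (95% interval -3.40 to 1.00, adjusted p = 0.564) and metformin from high fat by 0.22 (95% interval -1.98 to 2.42, adjusted p = 0.969). Without high-fat library 4 these were 1.75, -1.58 and -0.15, the last with its direction turned, at adjusted p of 0.343, 0.639 and 0.997. With each library of the compared groups left out in turn, the differences ranged from 0.95 to 1.98, from -2.15 (without resveratrol library 4) to -0.29 (without resveratrol library 1), and from -0.46 to 0.61. Resveratrol and metformin differed by -1.42 (95% interval -3.62 to 0.78, adjusted p = 0.805), and by -2.37 to -0.51 with libraries left out. From ordinary feed, resveratrol differed by 0.17 (adjusted p = 0.972) and metformin by 1.59 (adjusted p = 0.407), and with libraries left out these ranged from -0.78 to 1.08 and from 0.91 to 2.20. In order of the medians, ordinary feed, resveratrol, metformin and high fat, no neighbouring groups were separated by the test.

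At the last step, the Dgat2 3′ UTR transcript NONMMUT062889.2 was the most abundant of the 6, with 1257 to 3865 reads per library and rank 23 of 7413 by mean FPKM. On ordinary feed its FPKM in libraries 1 to 4 was 105, 108, 113 and 122. On high-fat feed it was 213, 179, 186 and 219. The groups did not overlap, and the mean was 112 ± 7.34 on ordinary feed and 199 ± 19.7 on high fat, a ratio of 1.78 (SD, n = 4). The log2 fold change was 0.82 (SE 0.18, 95% interval 0.44 to 1.21, limma adjusted p = 0.0124). Among the 944 tested features that lie in 3′ UTRs, 8 (0.847%) were called higher in this comparison. Without high-fat library 4 the difference was 0.78 (adjusted p = 0.0211), and with the libraries scaled to a common median it was 1.10 (adjusted p = 0.00846). The call was lost only when no filter on low values was applied and adjustment ran over 49988 features (adjusted p = 0.0607).

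The means of both drug groups lay between ordinary feed and high fat for this transcript. With resveratrol the FPKM values were 173, 169, 119 and 234, a mean of 174 ± 47.0, and with metformin they were 192, 171, 167 and 168, a mean of 175 ± 11.8. Resveratrol library 3 fell within the ordinary feed range and resveratrol library 4 was the highest of all 16 libraries, while every metformin value exceeded every ordinary feed value. From high fat alone, resveratrol differed by -0.23 (95% interval -0.61 to 0.16, limma adjusted p = 0.529) and metformin by -0.19 (95% interval -0.57 to 0.20, adjusted p = 0.824). Without high-fat library 4 these were -0.18 (adjusted p = 0.740) and -0.14 (adjusted p = 0.935), and with scaling to a common median -0.45 (adjusted p = 0.380) and -0.30 (adjusted p = 0.738). The resveratrol difference was -0.06 without resveratrol library 3 and -0.38 without resveratrol library 4. The drugs differed from each other by -0.04 (95% interval -0.43 to 0.34, adjusted p = 0.983). From ordinary feed, resveratrol differed by 0.60 (95% interval 0.21 to 0.98, adjusted p = 0.179) and metformin by 0.64 (95% interval 0.25 to 1.02, adjusted p = 0.0857), and neither passed. In order of the means, ordinary feed, resveratrol, metformin and high fat, no neighbouring groups were separated by the test.

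No transcript on the 3 genes was called in any comparison with a drug group. Over all tested features the share called was 0.0809% for resveratrol against high fat, 0.027% for metformin against high fat, 0.283% for resveratrol against ordinary feed and 0.297% for metformin against ordinary feed. The share was 0% for resveratrol against metformin, where 471 features had an unadjusted p under 0.05 in limma and the lowest adjusted p was 0.186. Values of the metformin and ordinary feed groups failed to overlap for 2 of the 4 transcripts, Gpam and the Dgat2 3′ UTR, and for 13.4% of all tested features. The comparisons with high fat share the high-fat libraries, and those with ordinary feed share its libraries.

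**Figure D3:**
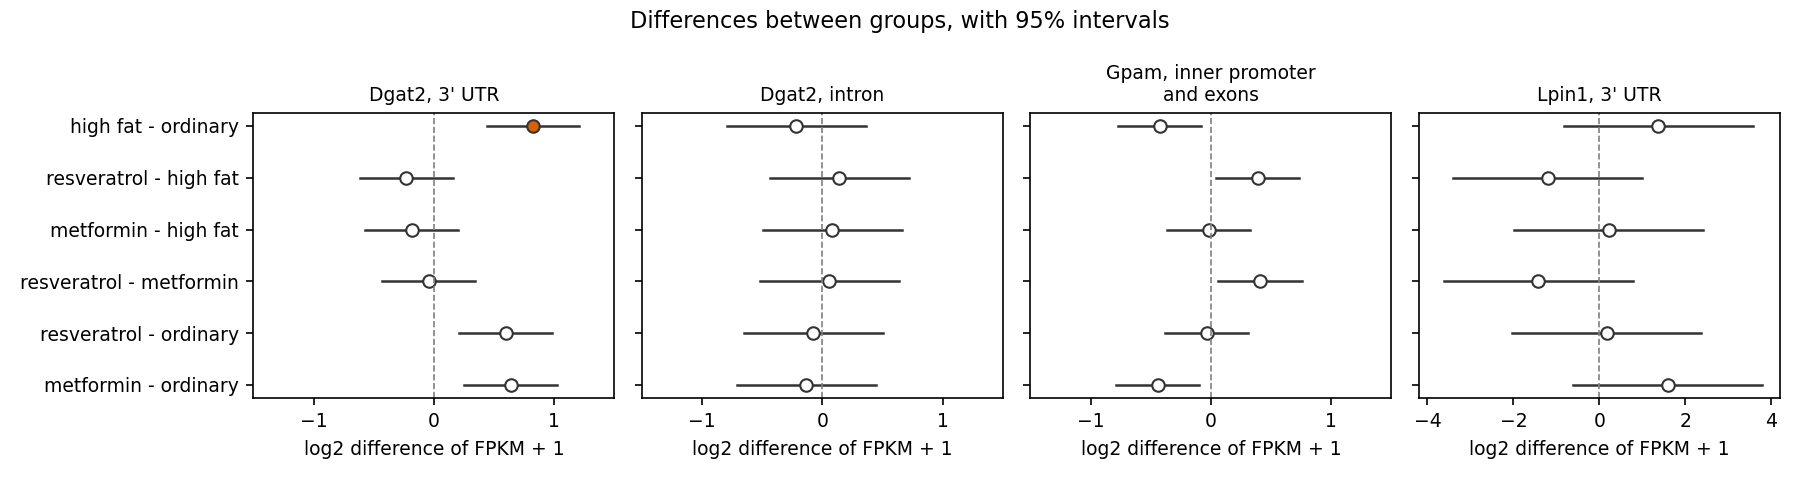
Log2 differences of FPKM + 1 between groups (points) with 95% confidence intervals (lines) for the 4 tested transcripts in the 6 comparisons, filled where the adjusted p was under 0.05. The horizontal axis of the Lpin1 panel is wider than that of the others. Only the Dgat2 3′ UTR transcript on high fat against ordinary feed, at 0.82, is filled.

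Within Dgat2, the intronic transcript NONMMUT062890.2 (190 to 826 reads per library) was at overlapping levels in all groups. Its FPKM was 6.98, 7.84, 6.31 and 8.62 on ordinary feed and 4.26, 6.71, 7.46 and 6.96 on high fat. It was 7.16, 12.9, 3.41 and 7.04 with resveratrol and 8.46, 6.58, 5.30 and 6.61 with metformin. The means were 7.44 ± 1.01, 6.35 ± 1.43, 7.63 ± 3.92 and 6.74 ± 1.30 in that order. High fat differed from ordinary feed by -0.22 (SE 0.27, 95% interval -0.79 to 0.36, limma adjusted p = 0.606), and by -0.26 without high-fat library 4 (adjusted p = 0.607). With the libraries scaled to a common median the difference was 0.04, a turn of direction. From high fat alone, resveratrol differed by 0.14 (95% interval -0.44 to 0.72) and metformin by 0.08 (95% interval -0.49 to 0.66), at adjusted p of 0.812 and 0.956.

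Dividing the Dgat2 transcripts by each other within a library removes the library's total from the comparison. The ratio of 3′ UTR to intronic FPKM, which is per length, was 15.0, 13.7, 17.9 and 14.1 on ordinary feed. It was 50.04, 26.7, 24.9 and 31.4 on high fat, with every value above every ordinary feed value. With resveratrol it was 24.2, 13.1, 35.0 and 33.3, and with metformin 22.7, 25.9, 31.5 and 25.5. All metformin ratios and 3 of 4 resveratrol ratios also lay above the ordinary feed range, and resveratrol library 2 lay below it. The group means were 15.2 ± 1.91, 33.3 ± 11.5, 26.4 ± 10.0 and 26.4 ± 3.70 (SD, n = 4), given as a description without a test. The 3′ UTR transcript by itself already separated high fat and metformin from ordinary feed, so the ratio is not a separate result. How often other pairs of features separate in this way was not computed.

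**Figure D4:**
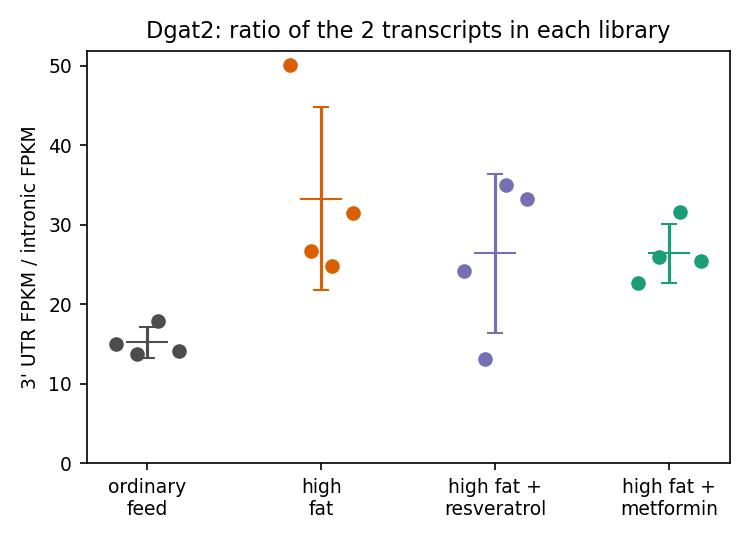
Ratio of the FPKM of the Dgat2 3′ UTR transcript to that of the Dgat2 intronic transcript in each library (points), with group means ± SD (n = 4). The ordinary feed ratios lie between 13.7 and 17.9, and the high-fat ratios between 24.9 and 50.04.

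The tested transcripts were also set against each other across the 16 libraries. Pearson's r of log2(FPKM + 1), which pools differences between and within groups and shares each library's scaling, was 0.04 between the Dgat2 transcripts. It was 0.49 between Gpam and the Dgat2 intronic transcript, 0.45 between Lpin1 and the Dgat2 3′ UTR transcript, -0.34 between Gpam and the Dgat2 3′ UTR transcript, -0.44 between Lpin1 and Gpam, and -0.16 between Lpin1 and the Dgat2 intronic transcript.

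The features most like the leading transcript of each gene were ranked by Pearson's r over the same 16 libraries. For the Dgat2 3′ UTR transcript they lay in the 3′ UTR region of Mafg and Sirt7 (r = 0.91), in an interval on chromosome 1 outside coding genes (0.89), in the 3′ UTR of Igfbp4 (0.88) and on Coq10b (0.87). With group means removed these correlations were 0.53 to 0.82. For the Gpam transcript they lay on Arhgef3 (0.93) and in introns of Cdh2 (0.90), Ppara (0.90), Tns1 (0.90) and Ppp2r5e (0.89), and were 0.75 to 0.90 with group means removed. For the Lpin1 transcript they lay on Cep85 (0.87), in the 3′ UTR of Tns1 (0.85 and 0.83) and of Ubr2 (0.84), and in the assembled transcript MSTRG.11329.1 (0.83), and were 0.80 to 0.89 with group means removed. They are given as a description.

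Other genes of the same pathway were read through the listed transcripts on their bodies. Of 20 further genes of acyl chain assembly, 14 carried a listed transcript and 7 a tested feature, 17 features in all. On high fat against ordinary feed none was called higher and 6 were called lower, where 11.8% of all tested features were called lower, with a median log2 fold change of -0.33 beside -0.16 over all tested features. With the libraries scaled to a common median 3 were called lower and the median was -0.09, and without high-fat library 4 the count was 4. Most of the 6 are intronic, and the share called lower among intronic features alone is not given here. Intronic features of the other lists mostly lay below 0 too, such as those on Cept1 (-0.53, -0.49, -0.31 and -0.41, none called). The exceptions lay on Ces1d (0.46), Ppargc1b (0.29) and Acsl4 (0.13).

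Of the 6 assembly features called lower, 4 lie in introns of Gk, the glycerol kinase that makes glycerol 3-phosphate, the backbone that Gpam acylates. NONMMUT073068.2 fell from 7.88 ± 3.77 to 2.15 ± 0.670 FPKM (log2 fold change -1.40, SE 0.32, limma adjusted p = 0.0137). NONMMUT073066.2 fell from 9.41 ± 4.39 to 2.92 ± 0.492 FPKM (-1.29, adjusted p = 0.0200). NONMMUT073071.2 fell from 5.21 ± 1.18 to 2.14 ± 0.485 FPKM (-0.98, adjusted p = 0.0180) and NONMMUT073067.2 from 1.67 ± 0.882 to 0.354 ± 0.0809 FPKM (-0.92, adjusted p = 0.0139). Ordinary feed and high-fat values did not overlap for any of the 4, as for 20.9% of all tested features, and the 4 share 1 gene and are not separate measures of it. Scaling to a common median left NONMMUT073066.2 at an adjusted p of 0.0514 and NONMMUT073071.2 at 0.0574, and leaving out high-fat library 4 put NONMMUT073066.2 at 0.0526. With each library left out in turn NONMMUT073066.2 was called in 4 of 8 fits, its call being lost also on leaving out any of ordinary libraries 1, 2 and 3, and the other 3 were called in 8 of 8. All 4 calls were lost without a filter on low values. With only the compared groups in the fit, NONMMUT073066.2 and NONMMUT073067.2 were not called. With scaling and without high-fat library 4 together, NONMMUT073066.2, NONMMUT073068.2 and NONMMUT073071.2 were not. With the drugs, NONMMUT073068.2 lay at 3.98 ± 1.91 FPKM for resveratrol and 3.22 ± 0.574 for metformin.

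The other called features of this list were singled out after their values were seen. The Ensembl gene on Lpin3, a lipin paralog of Lpin1, fell from 1.31 ± 0.180 to 0.688 ± 0.129 FPKM (-0.45, limma adjusted p = 0.0130; 0.0466 with scaling, 0.0273 without high-fat library 4). The intronic feature on Plpp1, a lipid phosphate phosphatase, fell by 0.33 on the log2 scale (adjusted p = 0.0481; 0.163 with scaling, 0.121 without that library) and was called in 2 of 8 fits with a library left out, those that left out library 1 of either group. The Lpin3 call was lost with quantile normalization (adjusted p = 0.0509). The 3 tested features on Lpin2, another lipin, stood at -0.70, -0.11 and -0.74 and did not pass.

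Genes before and after assembly were read in the same way, and most of them carried no tested feature. Tested features lay on 4 of 13 genes of fatty acid uptake and activation and 5 of 18 of lipid droplet and export. They lay on 5 of 21 genes of the phospholipid branches and 6 of 15 of triglyceride breakdown. None of 8 on fatty acid uptake and activation genes was called, with a median log2 fold change of -0.05 (0.10 and 1 called higher with scaling). None of 9 on lipid droplet and export genes was called, with a median of -0.21 (-0.02 with scaling). Nor was any of 10 on the phospholipid branches that draw on phosphatidate and diacylglycerol, with a median of -0.17 (-0.02 with scaling). On genes of triglyceride breakdown 1 of 10 was called lower, an intronic feature on the lysosomal lipase gene Lipa (-0.58, limma adjusted p = 0.0415). The median of the 10 was -0.35 (-0.12 with scaling). The share called lower over all tested features was 11.8%. The Lipa call was lost with scaling (adjusted p = 0.131) and without high-fat library 4 (adjusted p = 0.111), and it held in 2 of 8 fits with a library left out, those leaving out ordinary library 4 or high-fat library 3.

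Of 24 genes encoding transcriptional regulators of lipid synthesis, 16 carried a listed transcript and 7 a tested feature, 18 features in all. The counts below speak for those 7 genes only. On high fat against ordinary feed, 2 of the 18 were called higher, 3 were called lower and the median was 0.04. Over all tested features 2.83% were called higher and 11.8% lower. With scaling to a common median 2 were called higher, 1 was called lower and the median was 0.26. Both that rose lie on 1 gene, Hnf4a, a nuclear receptor of hepatocytes, and are not separate measures of it. The other tested features on Hnf4a stood at 0.05, -0.04 and 0.27 and did not pass. MSTRG.25288.3 rose from 1.55 ± 1.03 to 6.31 ± 1.79 FPKM (log2 fold change 1.57, limma adjusted p = 0.0117) and NONMMUT110083.1 from 6.09 ± 3.46 to 13.3 ± 1.77 FPKM (1.13, adjusted p = 0.0231). With each library left out in turn, MSTRG.25288.3 was called in 8 of 8 fits and NONMMUT110083.1 in 4 of 8, its call being lost on leaving out high-fat library 4 (0.0535) or any of ordinary libraries 1, 2 and 3. Both calls were lost without a filter on low values, and that of NONMMUT110083.1 also with only the compared groups in the fit. In the 3′ UTR of Insig2, which encodes a protein that retains SREBP precursors in the endoplasmic reticulum, NONMMUT002394.2 fell from 193 ± 32.8 to 85.9 ± 36.2 FPKM (-1.28, adjusted p = 0.0257). That call did not hold on leaving out ordinary library 2 or 3, with only the compared groups in the fit, without a filter on low values, and with scaling and without high-fat library 4 together, and its log2 fold change ranged from -1.46 to -0.74 over the alternatives. It lay at 140 ± 45.5 FPKM with resveratrol and 82.7 ± 17.0 with metformin. An intronic feature on Ppara, the receptor that drives fatty acid oxidation genes, fell by 0.71 (NONMMUT024512.2, adjusted p = 0.0419; 0.0922 with scaling, 0.0944 without high-fat library 4). It was called in 1 of 8 fits with a library left out, the one without high-fat library 1. The other tested features on Ppara stood at -0.58 (adjusted p = 0.0585) and 0.19 (adjusted p = 0.759) and did not pass. The remaining call, MSTRG.1548.1 on Insig2 at -0.58 (adjusted p = 0.0360; 0.103 with scaling, 0.0991 without that library), was singled out after its values were seen. It was called in 2 of 8 fits with a library left out, those without high-fat library 2 or 3.

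**Figure D5:**
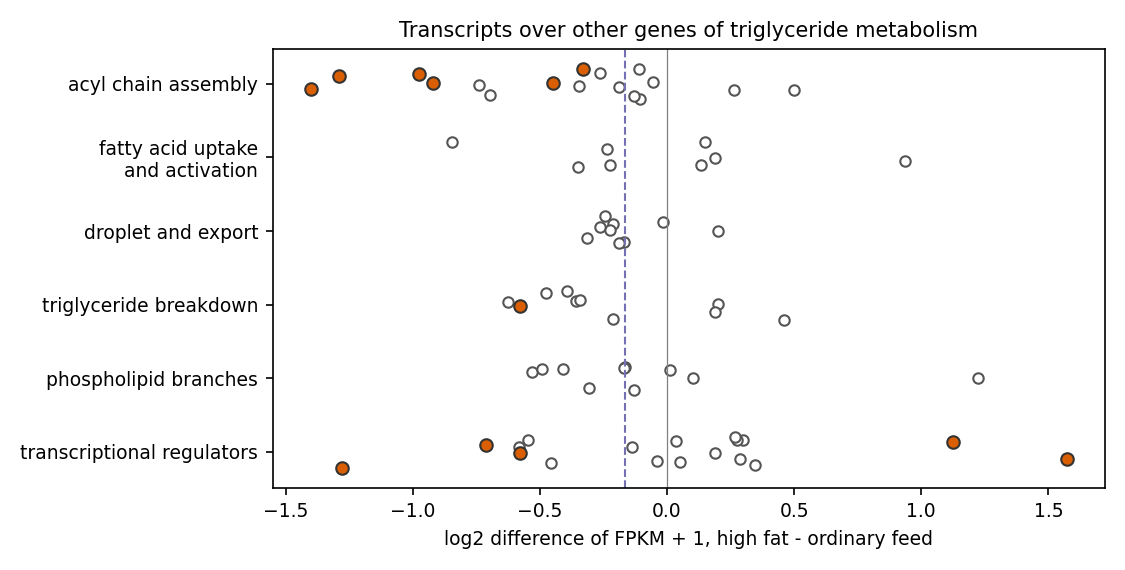
Log2 difference of FPKM + 1 between high fat and ordinary feed for each tested feature on other genes of triglyceride metabolism, by gene list. Filled points had an adjusted p under 0.05, the dashed line is the median of all tested features, -0.16, and vertical jitter within a list carries no meaning. All 6 filled points of acyl chain assembly lie below 0.

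In the comparisons with a drug group, 1 feature on these lists was called. MSTRG.25288.3 on Hnf4a was higher with metformin, at 7.29 ± 2.84 FPKM, than on ordinary feed (log2 fold change 1.73, limma adjusted p = 0.0491). That adjusted p was close to the threshold. Over all tested features 22 (0.297%) were called in that comparison, a count that ranged from 2 to 175 over the alternatives. How this call fared in the alternatives is not given here. The medians of the acyl chain assembly list were 0.31 for resveratrol against high fat and 0.07 for metformin against high fat, beside 0.13 and 0.07 over all tested features, with none of the 17 features called in either.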

How the data were processed

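The authors deposited 1 table of FPKM values per library. Bowtie 0.12.2, Cufflinks 2.1.1 and GRCm38 (mm10) are named, per the submitters' processing notes, and libraries were made from Trizol-extracted total RNA with an Illumina TruSeq kit, per the labels. The sources used here do not give the annotation, the strand handling or any filter. Multiplied by length, at least 99.98% of values fell on whole multiples of a library's step (tolerance 0.05 of a read), which gave reads and totals. Intervals were placed on GENCODE M21.

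Transcripts of an Ensembl gene were summed (49988 features). The 7413 features that reached FPKM 1 in 4 or more libraries entered a limma fit (3.58.1, R 4.3.3) of log2(FPKM + 1) with a trended variance, checked on simulated data. Scaling to a common median used median ratios over 7129 features. Alternatives were 0.1 as pseudocount, no filter, 8 libraries in the filter, other scalings, no trend, unsummed transcripts, each comparison's groups alone and each library left out. Libraries were numbered in sample order. Members and lists were chosen with earlier results of these data known. Named were all tested members, the highest untested one, the 4 largest called features per list and comparison, and the 5 features most alike to each gene's leading transcript, of which 1 is not reported here.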

Additional observations from a re-analysis of the deposited data

Results flagged for a closer look

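In groups of 4 libraries, a library was singled out when its gap to the nearest other was a larger share of the group's range than Dixon's 95% critical value allows. Of 24 groups examined, 4 held such a library. The rule was applied to FPKM itself and not to log values, and its rate of 1 group in 20 by chance assumes normally distributed values. The count is therefore not set against that rate.

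For the Dgat2 3′ UTR transcript NONMMUT062889.2, metformin library 1 stood high at 192 FPKM, above the other 3 at 167 to 171. For the Lpin1 transcript NONMMUT013500.2, resveratrol library 4 stood high at 52.9 FPKM and metformin library 2 at 81.7 FPKM. For the untested Gpam transcript NONMMUT105664.1, high-fat library 4 was at 0.0399 FPKM, on 4 reads, while the other 3 high-fat libraries were at 0. With 3 values at 0, the rule singles out any other value.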

How the results depend on the processing

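The number of called transcripts on the 3 genes kept its value in 106 of 108 recomputations. For each comparison, 1 of these required at least 50% of the interval in the gene body. It could not change the number, because every member lies wholly in its gene. Most of the rest are counts of 0 in drug comparisons, where at most 0.297% of all features were called as reported. The number went from 1 to 0 on high fat against ordinary feed without a filter on low values. It went from 0 to 1 on metformin against ordinary feed with median-ratio scaling and without high-fat library 4, where the Dgat2 3′ UTR transcript reached 0.80 (adjusted p = 0.0370). With each library left out in turn, its high-fat difference was 0.78 to 0.87 (adjusted p 0.0191 to 0.0337). All features called on high fat against ordinary feed numbered 274 to 1181 (1085 as reported). They numbered 274 without a filter, 449 with only the compared groups, 605 without high-fat library 4, 531 with scaling besides, 539 and 576 without ordinary feed library 2 or 3 and 722 without high-fat library 2. Their split moved from 210 higher and 875 lower to 447 and 366 with median-ratio scaling and 338 and 383 (721 in all) with quantile normalization. The other comparisons gave 1 to 57 (resveratrol against high fat), 1 to 10 (metformin against high fat), 0 to 2 (the drugs), 1 to 61 (resveratrol against ordinary feed) and 2 to 175 (metformin against ordinary feed).

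Of 408 recomputed differences of the 4 transcripts, 32 turned direction, none of them called. For the Dgat2 intronic transcript, median-ratio scaling gave 0.0358 (high fat against ordinary feed), -0.0601 (resveratrol against high fat), -0.0252 (metformin against high fat), -0.0349 (the drugs) and 0.0106 (metformin against ordinary feed). Without high-fat library 4 besides, the last values were -0.0369 and 0.0104. Quantile normalization gave -0.0359 (resveratrol against high fat) and -0.0735 (the drugs). Leaving out libraries gave -0.13 to 0.42, -0.0696 to 0.18, -0.21 to 0.34 and -0.34 to 0.21 for resveratrol against high fat, metformin against high fat, the drugs and resveratrol against ordinary feed. Gpam on resveratrol against ordinary feed was 0.0137 with median-ratio scaling, 0.0119 without that library besides, and -0.15 to 0.13 with libraries left out, and on metformin against high fat -0.0726 to 0.0476. Lpin1 on metformin against high fat was -0.14 with scaling and without that library, and -0.46 to 0.61 with libraries left out. On resveratrol against ordinary feed it was -0.23 with a pseudocount of 0.1, and -0.78 to 1.08 with libraries left out. The Dgat2 3′ UTR transcript was -0.20 to 0.12 between the drugs with libraries left out. The cause was not tested. Requiring at least 50% of the interval within the gene body left the members as they were.

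No paired analysis was possible because the labels give no replicate numbers. Low read numbers limit the 2 untested Gpam transcripts and the lowest Lpin1 values, and 4 libraries per group limit the rest.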
